A study of Homo sapiens with 9 samples.

Results

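Transcripts of 10 feedback regulators of the ERK pathway were followed in the human prostate carcinoma line 22Rv1, grown in RPMI medium with fetal bovine serum. The genes were DUSP4, DUSP5, DUSP6, SPRY1, SPRY2, SPRY4, SPRED1, SPRED2, ETV4 and ETV5, taken by symbol as standard transcriptional outputs of ERK. All 10 were among the 60623 genes of the count table, and all 10 were among the 16213 that passed the filter on low counts. PDCD4, an inhibitor of the translation initiation helicase EIF4A, had been depleted in every group with a short hairpin RNA, and one form of PDCD4 was then put back. The forms were wild type (WT), S239A, whose alanine in place of the serine accepts no phosphate, and S239D, whose aspartate is meant to resemble the phosphorylated serine. Each form had 3 libraries. The stated purpose was to learn how the kinase PLK1, by phosphorylating PDCD4, affects resistance to the prostate cancer drug enzalutamide. The labels do not say whether a group was 1 clone or a pool, nor whether its libraries came from separate cultures, so p-values here reflect no more than the spread among the libraries at hand, which may be technical.

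ERK is the last kinase of a cascade that runs from receptor tyrosine kinases through RAS, RAF and MEK. Among the genes it induces are its own brakes. DUSP phosphatases remove the activating phosphates from ERK, Sprouty proteins act upstream of RAS and RAF, and SPRED proteins bring the RAS inactivator NF1 to the membrane. ETV4 and ETV5 are ETS transcription factors of the PEA3 group, which carry the signal to further genes and are known in prostate cancer as partners of oncogenic gene fusions.

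Library totals were 5696841 to 9688554 counts, and a floor of 3 counts was 0.310 to 0.527 normalised counts (CPM, scaled to the library total), which covers counting error only. All 10 luminal epithelial markers checked, among them KRT8, KRT18 and HOXB13, were above 1 TPM in each group (TPM is a level per length of transcript, scaled to a fixed sum in each library). Their summed level was 3848 to 3944 TPM in WT, 3903 to 4441 in S239A and 2891 to 2959 in S239D. The 3 basal and 3 endothelial markers had group means below 1 TPM, and the T cell marker CD3E was listed at 0 in all 9 libraries. Of 6 fibroblast markers, 3 were over 1 TPM in WT and 2 in S239D, with summed levels of 46.8 to 58.8 and 26.8 to 36.9 TPM. Of 5 neuroendocrine markers 3 were over 1 TPM, and their sum was 236.85 to 250.04 TPM in WT and 140 to 163 in S239D. The part of these lists in the members' values was not tested. PDCD4 had 23.1 ± 2.4 CPM in the WT group, 22.4 ± 3.1 with S239A and 17.0 ± 0.18 with S239D (SD, n = 3), and its counts do not tell the cells' own gene from the introduced copy. It was called lower in S239D against WT (log2 fold change -0.44, edgeR adjusted p = 0.0164) and against S239A (-0.40, edgeR adjusted p = 0.0245). The form of PDCD4 and its transcript level thus differed together in S239D, and the part of that level was not tested. The S239D libraries lay apart on the first principal component (54.8% of the variance), at 58.5 to 62.4, against -35.9 to -26.1 for the other 6 libraries. S239A replicate 2 and S239D replicate 2 lay apart from the rest on the second component (10.99%), at -39.4 and -29.2. The mitochondrial share of counts was 2.83 to 3.04% in WT, 2.99 to 5.38% in S239A and 4.72 to 6.01% in S239D, and replicate 2 was the highest in both variants.

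RefSeq upstream sequence (build GRCh38.p14) was matched for 6 of the 10 genes, DUSP6, SPRY1, SPRY2, SPRY4, SPRED1 and SPRED2. The Sprouty genes are shown because, in S239D against WT, SPRY4 fell, SPRY2 was lower at the threshold and SPRY1 was not called. Differences between these genes were not tested. Each sequence reads 5′ to 3′ on the gene's strand and ends where the start site or an annotated exon begins. Capitals mark the ETS core CCGGAA, the site type that PEA3 proteins bind. The SPRY4 line holds the 80 bases, 171 to 250 before a RefSeq start, that lie outside GENCODE 29 exons (chr5:142324418-142324497, minus strand). They lie within the annotated span of SPRY4. The SPRY2 line is chr13:80341127-80341376 on the minus strand and the SPRY1 line is chr4:123396545-123396794 on the plus strand, 250 bases each.
SPRY4: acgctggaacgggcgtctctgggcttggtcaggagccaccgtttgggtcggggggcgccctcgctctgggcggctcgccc
SPRY2: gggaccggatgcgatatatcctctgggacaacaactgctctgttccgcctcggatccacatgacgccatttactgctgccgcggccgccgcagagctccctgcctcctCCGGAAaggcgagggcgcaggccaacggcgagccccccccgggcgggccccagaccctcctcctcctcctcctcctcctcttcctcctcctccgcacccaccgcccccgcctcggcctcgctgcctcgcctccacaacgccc
SPRY1: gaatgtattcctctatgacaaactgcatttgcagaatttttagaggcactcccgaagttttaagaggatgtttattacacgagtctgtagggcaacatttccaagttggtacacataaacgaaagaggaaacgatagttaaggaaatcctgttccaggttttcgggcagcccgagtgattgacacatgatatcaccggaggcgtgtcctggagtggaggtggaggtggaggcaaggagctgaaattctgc

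These stretches differed in base composition. G and C made up 73.8% of the SPRY4 stretch, 70.4% of the SPRY2 window and 45.6% of the SPRY1 window. These values belong to the printed stretches and not to the genes. The full SPRY4 window of 250 bases had 65.6%, a window of another SPRY1 start 68.0%, and windows of other SPRY2 starts 62.4% and 41.2%. Over all 10 windows of 250 bases that the table gives for the 6 genes, some of which have several starts, both strands were searched for 4 motifs. CCGGAA was found in 2, the SPRY2 window printed here and the window of a second SPRY1 start, and 14.5% of all 35116 windows of that length hold it. That SPRY1 window lies within the annotated span of SPRY1, and GENCODE 29 exons cover all 250 of its bases. The AP-1 site TGANTCA (6.57% of all windows), the cyclic AMP response element TGACGTCA (1.65%) and the CArG box (1.16%) were found in none of the 10. A match is a description of the letters and no evidence of binding.

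Without regard to genotype, the members differed widely in level per length. In WT, SPRED2 was the highest at 30.9 ± 1.8 TPM (SD, n = 3), followed by ETV5 at 23.0 ± 2.3 and ETV4 at 19.8 ± 1.8, whose ranges overlapped. SPRY4 (14.9 ± 0.85 TPM), DUSP6 (13.7 ± 1.5) and SPRY2 (13.4 ± 1.3) formed a second tier, each overlapping its neighbour in the order. SPRED1 (9.19 ± 0.89 TPM), DUSP4 (8.75 ± 0.40) and SPRY1 (8.23 ± 2.0) formed the next, and DUSP5 was the lowest at 1.96 ± 0.55. In S239A the first 6 ranks were held by the same genes as in WT. In S239D DUSP4 was at rank 3, with 16.4 ± 0.79 TPM, against rank 8 in WT. ETV4 and SPRY4 were at ranks 8 and 9 there, with 8.62 ± 0.39 and 6.80 ± 0.61 TPM, against ranks 3 and 4 in WT. The first 8 genes of the S239D order each overlapped their neighbour, so the order of neighbours among them is not resolved beyond the spread. DUSP4 (15.5 to 17.1 TPM) still lay above ETV4 (8.39 to 9.07) without overlap. SPRY4 lay below ETV4 and above DUSP5, also without overlap.

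The summed level of the 10 transcripts was 144 ± 4.9 TPM in WT, 152 ± 8.5 with S239A and 141 ± 19 with S239D (SD, n = 3), and the ranges of the 3 groups overlapped. Within that sum the Sprouty trio held 36.5 ± 2.4 TPM in WT and 26.9 ± 1.2 in S239D, without overlap of their libraries. The SPRED pair held 40.1 ± 2.5 and 50.3 ± 2.1 TPM in the same groups, also without overlap. In normalised counts neither SPRED gene was called in S239D against WT. Their log2 fold changes there were 0.038 for SPRED1 (edgeR adjusted p = 0.860) and 0.20 for SPRED2 (edgeR adjusted p = 0.0583). On the log2(TPM + 1) scale the median gene itself lay at 0.082 in that comparison. The share of all genes whose TPM parted in this way was not counted. DUSP4 made up 35.9 ± 1.5% of the DUSP trio in WT, 41.9 ± 4.7% with S239A and 52.6 ± 4.5% with S239D. The share of SPRY4 in the Sprouty trio was 40.9 ± 2.9% in WT, 42.1 ± 5.1% with S239A and 25.2 ± 1.8% with S239D.

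S239D was compared with WT to learn the effect of mimicking the phosphate, though the PDCD4 transcript level also differed between these groups. ETV4 and SPRY4 fell to 0.399 and 0.499 of their WT level and DUSP4 rose 1.77-fold, while DUSP5, DUSP6, SPRY1, SPRED1, SPRED2 and ETV5 did not pass the test. SPRY2 was lower at the threshold. Of the 10 genes, 4 were called (40%), 1 higher and 3 lower, and 41.4% of all 16213 genes were called in the same comparison (19.7% higher and 21.7% lower). At an unadjusted p under 0.05 there were 5 of 10 and 49.4%. The share among the feedback regulators was near that of all genes. Their median log2 fold change was -0.11, against 0.00075 over all genes, and their median absolute change was 0.27, against 0.34. In bulk RNA, fewer cells that express a gene and less RNA per cell cannot be told apart.

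**Figure D1:**
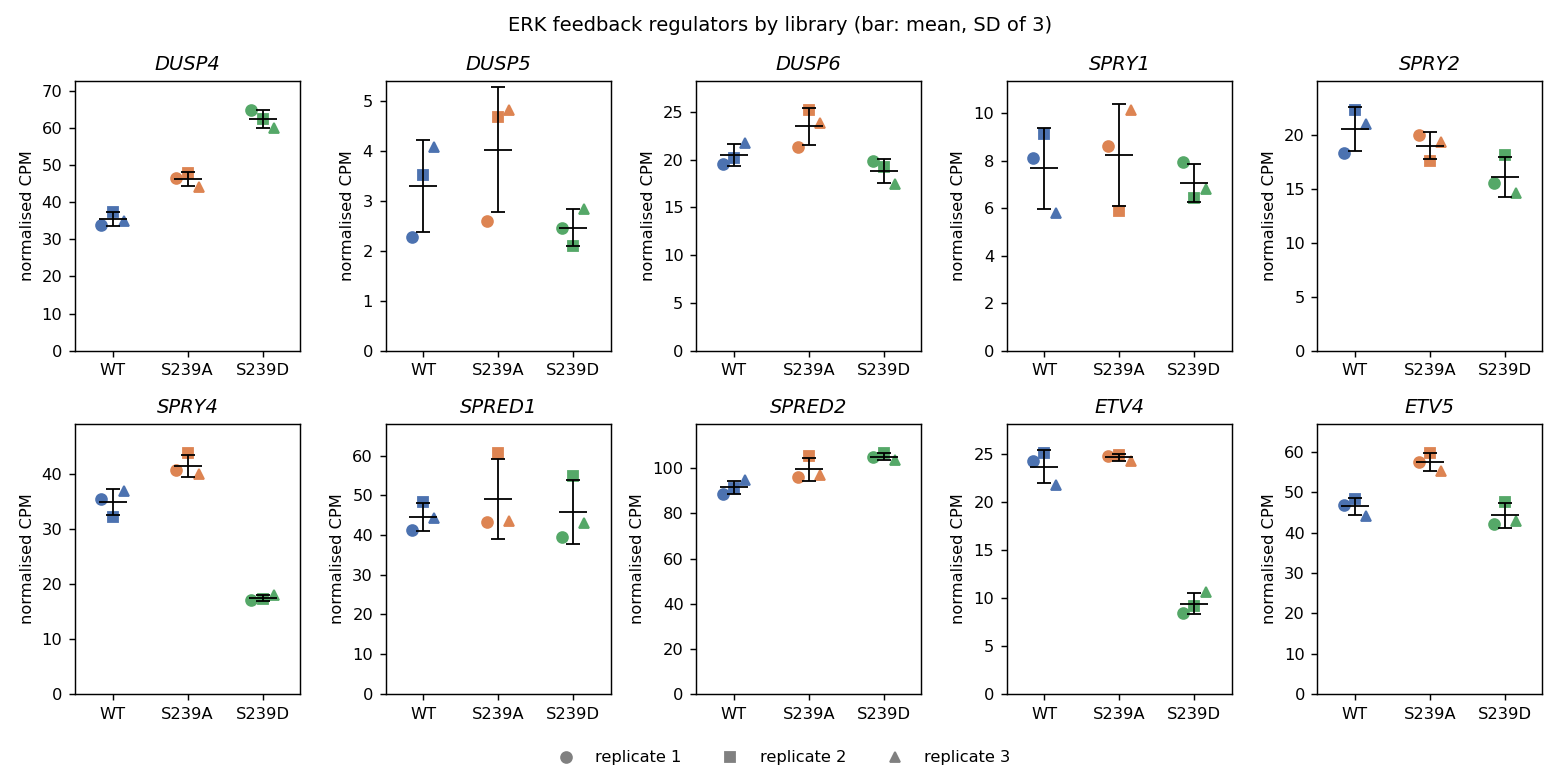
Normalised counts (CPM, y axis, from 0) of each gene in the 9 libraries by rescue (x axis), with markers for replicates 1 to 3 and a black bar for the mean and SD of 3. The S239D libraries of DUSP4 lie above all others, at 60.0 to 64.8 CPM, and those of SPRY4 and ETV4 below all others.

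DUSP4 encodes a nuclear phosphatase that acts on ERK and on JNK (chromosome 8, 29333064 to 29350684). Its normalised counts were 33.8, 37.4 and 34.9 CPM in WT replicates 1 to 3, 46.5, 47.9 and 44.1 with S239A and 64.8, 62.4 and 60.0 with S239D. The 3 groups did not overlap, with WT lowest, S239A between and S239D highest. The log2 fold change in S239D was 0.82 against WT (SE 0.094, edgeR adjusted p = 1.31e-05) and 0.43 against S239A (SE 0.092, edgeR adjusted p = 0.00164). Both calls held under all 18 alternatives, with adjusted p of at most 0.00115 and 0.0120. Genes of chromosome 8 had a median log2 fold change of 0.11 in S239D against WT (545 genes).

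DUSP6 encodes the cytoplasmic phosphatase most specific for ERK (chromosome 12, 89347235 to 89352501). It was at 19.5, 20.2 and 21.8 CPM in WT, 21.4, 25.2 and 23.9 with S239A and 19.8, 19.2 and 17.4 with S239D. The S239D libraries overlapped WT and lay below S239A. The difference from WT was -0.12 on the log2 scale (95% interval -0.38 to 0.13, edgeR adjusted p = 0.437). Against S239A it was -0.32 (SE 0.12, edgeR adjusted p = 0.0411), a call that 14 of 18 alternatives did not return. With limma on log2(TPM + 1) that difference was 0.021 (adjusted p = 0.951), and leaving out any 1 of the 9 libraries except S239A replicate 1 ended it (edgeR adjusted p = 0.0505 to 0.155). Exons of an annotated antisense gene, AC024909.2, cover 40.5% of the DUSP6 exonic bases. That gene had 37 to 70 counts per library, and without stated strandedness the reads of the pair cannot be told apart.

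DUSP5, a nuclear phosphatase selective for ERK (chromosome 10, 110497907 to 110511533), had only 17 to 47 counts per library. It stood at 2.28, 3.51 and 4.08 CPM in WT, 2.59, 4.67 and 4.82 with S239A and 2.45, 2.10 and 2.83 with S239D. All 3 groups overlapped. The interval of its log2 fold change against WT in S239D ran from -1.10 to 0.30, so that a change of 2-fold was within it. Its difference from S239A was -0.71 (SE 0.31, edgeR adjusted p = 0.0823). The pseudogene DUSP5P1 can share reads with it.

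The phosphatases thus parted from each other. The ratio of DUSP4 to DUSP6 counts within a library does not depend on scaling between libraries. It was 1.73 ± 0.12 in WT, 1.98 ± 0.18 with S239A and 3.32 ± 0.11 with S239D (SD, n = 3). The lowest S239D library, at 3.24, was above the highest of the other groups, at 2.18.

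SPRY4, a Sprouty inhibitor induced by growth factor signalling (chromosome 5, 142310427 to 142326455), was at 35.4, 32.3 and 37.1 CPM in WT, 40.9, 43.9 and 40.1 with S239A and 17.0, 17.3 and 18.1 with S239D. The S239D libraries were the lowest and nearest to each other, and those of S239A all lay above WT. It fell by 1.004 on the log2 scale against WT (SE 0.11, edgeR adjusted p = 7.31e-06). Against S239A it fell by 1.25 (SE 0.11, edgeR adjusted p = 6.78e-07). Both calls held under all 18 alternatives.

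SPRY2, a second Sprouty inhibitor (chromosome 13, 80335976 to 80341126), was at 18.3, 22.3 and 21.0 CPM in WT, 20.0, 17.6 and 19.4 with S239A and 15.6, 18.1 and 14.6 with S239D. The highest S239D library, replicate 2, was just under the lowest WT library. The log2 fold change against WT was -0.35 (SE 0.13, edgeR adjusted p = 0.0496), and 13 of 18 alternatives ended the call. Among them were DESeq2 (adjusted p = 0.118), limma on log2(TPM + 1) (-0.25, adjusted p = 0.214) and the removal of WT replicate 2 or 3, S239A replicate 1 or 3 or S239D replicate 1 or 3 (edgeR adjusted p = 0.0591 to 0.180). The adjusted p of SPRY2 spanned 0.00768 to 0.214 over the 18. The difference between S239D and S239A was -0.24 (95% interval -0.52 to 0.043, edgeR adjusted p = 0.157).

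SPRY1, the remaining Sprouty gene among the 10 (chromosome 4, 123396795 to 123403760), had 48 to 99 counts per library. It was at 8.13, 9.13 and 5.78 CPM in WT, 8.64, 5.90 and 10.1 with S239A and 7.96, 6.41 and 6.82 with S239D. All 3 groups overlapped, and the difference of S239D from WT was -0.10 on the log2 scale (95% interval -0.60 to 0.39, edgeR adjusted p = 0.747). The ratio of SPRY4 to SPRY2 counts was 1.72 ± 0.25 in WT, 2.20 ± 0.25 with S239A and 1.09 ± 0.14 with S239D, the last without overlap with either other group.

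Of the SPRED genes, SPRED2 is the member with the highest level per length (chromosome 2, 65310851 to 65432637). It was at 88.8, 91.1 and 94.6 CPM in WT, 95.9, 105 and 97.0 with S239A and 105, 107 and 104 with S239D. The S239D libraries lay above WT, with a log2 difference of 0.20 (95% interval 0.029 to 0.37) that just missed the threshold (edgeR adjusted p = 0.0583). With limma on log2(TPM + 1) the difference was 0.38 and passed (adjusted p = 0.0216), as it did without S239A replicate 2 (edgeR, 0.20, adjusted p = 0.0298).

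SPRED1, which is mutated in Legius syndrome (chromosome 15, 38252836 to 38357249), was at 41.3, 48.3 and 44.3 CPM in WT, 43.2, 60.6 and 43.4 with S239A and 39.4, 54.8 and 42.9 with S239D. Replicate 2 was the highest of every group, by more in the variants than in WT. In the variants those are the libraries with the highest mitochondrial shares, 5.38% and 6.01%, and the part of that in the SPRED1 level was not tested. The difference of S239D from WT was 0.038 (95% interval -0.28 to 0.36, edgeR adjusted p = 0.860) and turned to -0.10 without both of those libraries (edgeR adjusted p = 0.361). The ratio of SPRED2 to SPRED1 counts was 2.06 ± 0.15 in WT, 2.06 ± 0.28 with S239A and 2.34 ± 0.36 with S239D (SD, n = 3). The 3 groups overlapped.

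ETV4 showed the largest change of the 10 genes (chromosome 17, 43527844 to 43579620). It was at 24.3, 25.1 and 21.8 CPM in WT, 24.8, 24.95 and 24.3 with S239A and 8.45, 9.13 and 10.6 with S239D. The S239D libraries were far below the rest, and WT and S239A overlapped. The log2 fold change was -1.33 against WT (SE 0.13, edgeR adjusted p = 3.56e-06) and -1.39 against S239A (SE 0.13, edgeR adjusted p = 1.71e-06). Both calls held under all 18 alternatives. The helicase gene DHX8 lies across ETV4 on the opposite strand and shares 68 of its exonic bases (1.89%). DHX8 stood at 76.7 ± 4.1 CPM in WT and 87.8 ± 8.6 in S239D (SD, n = 3) and was not called (log2 fold change 0.19, edgeR adjusted p = 0.244).

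ETV5, the close paralogue of ETV4 (chromosome 3, 186046314 to 186110318), took another course. It was at 46.9, 48.5 and 44.2 CPM in WT, 57.5, 59.7 and 55.2 with S239A and 42.1, 47.7 and 42.9 with S239D. S239A lay above both other groups, and S239D overlapped WT. The log2 fold change in S239D was -0.070 against WT (95% interval -0.28 to 0.13, edgeR adjusted p = 0.586) and -0.38 against S239A (SE 0.094, edgeR adjusted p = 0.00519). Genes of chromosome 3 had a median log2 fold change of 0.22 in S239D against WT and 0.24 against S239A (885 genes). The ETV4 to ETV5 count ratio was 0.509 ± 0.015 in WT, 0.430 ± 0.011 with S239A and 0.213 ± 0.030 with S239D (SD, n = 3), and the 3 groups did not overlap.

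**Figure D2:**
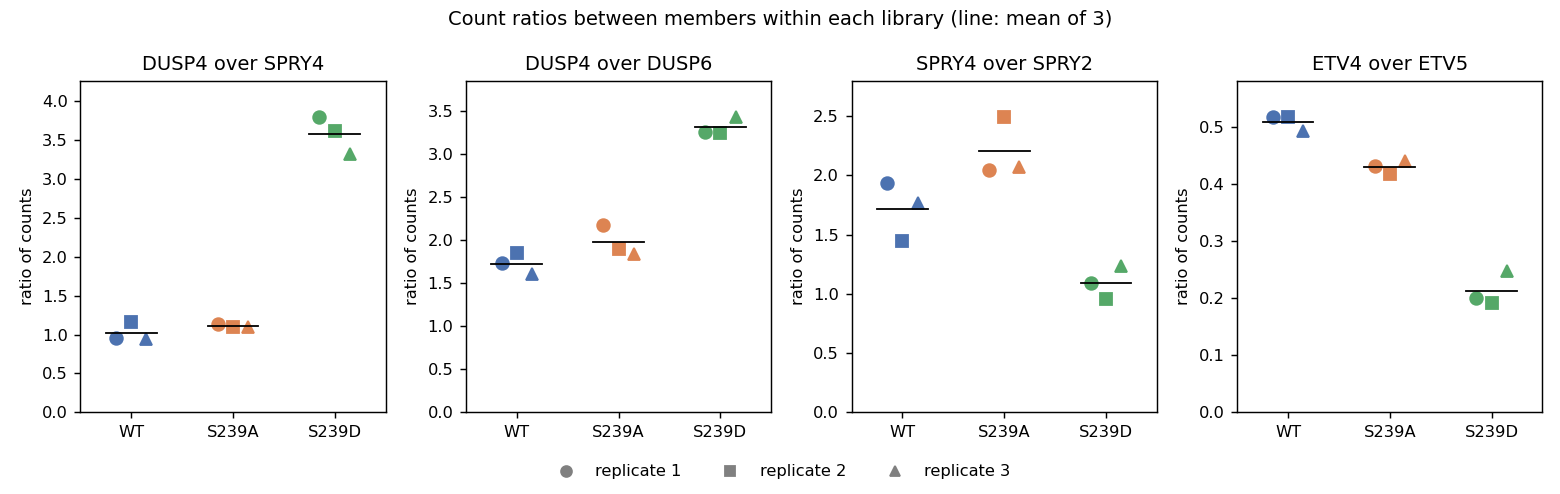
Ratio of counts (y axis, from 0) between pairs of members in each of the 9 libraries by rescue (x axis), with a line at the mean of 3. DUSP4 over SPRY4 is 0.942 to 1.16 in WT and 3.32 to 3.81 in S239D. The ratio of SPRED2 to SPRED1, which overlapped between groups, is not drawn.

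For ETV5 the counts and the TPM values did not show the same thing. ETV5 was at 18.1, 38.5 and 15.9 TPM in S239D replicates 1 to 3, where the normalised counts were close together. Dividing counts by TPM gives the transcript length that RSEM used. It was scaled to the median gene of the library and then to the gene's own mean over the 9 libraries. For ETV5 that relative length was 0.635 in S239D replicate 2 and 1.32 in S239D replicate 3. It spanned 2.08-fold over the 9 libraries, at the 92.1 percentile of 13823 genes, whose median span was 1.24-fold. The call of ETV5 between S239D and S239A was lost on the TPM scale (limma, -0.12, adjusted p = 0.792). The relative length of DUSP6 spanned 1.64-fold, while those of DUSP4 (1.02-fold) and SPRY2 (1.03-fold) hardly varied and that of ETV4 spanned 1.27-fold. Those of SPRY4 (1.46-fold) and SPRY1 (1.45-fold) varied too, and the TPM sum of the Sprouty trio and the share of SPRY4 in it rest on them.

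ETV5 also overlaps DGKG, a diacylglycerol kinase gene on the same strand, by 164 exonic bases (2.83% of those of ETV5). DGKG fell from 17.9 ± 1.3 CPM in WT to 2.10 ± 0.52 in S239D (log2 fold change -3.07, SE 0.19, edgeR adjusted p = 6.96e-08) and stood at 27.9 ± 3.3 in S239A. It is the neighbour of ETV5 and no feedback regulator. Its part in the ETV5 counts was not tested.

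S239A was compared with WT to learn the effect of removing the phosphate acceptor. None of the 10 genes passed the edgeR test, and 1 gene of 16213 (0.00617%) did, TXNIP, named after its value was seen. DESeq2, which gave 4 of the 10 an adjusted p, and limma on either TPM scale also called 0. An unadjusted p under 0.05 was reached by 3 of the 10, DUSP4, SPRY4 and ETV5, and by 9.76% of all genes. The median log2 fold change of the 10 was 0.17, against 0.0017 over all genes, and 9 of 10 were above 0.

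DUSP4 had a log2 difference of 0.39 in S239A (95% interval 0.18 to 0.59, edgeR adjusted p = 0.239). For ETV5 it was 0.31 (0.10 to 0.51, edgeR adjusted p = 0.303) and for SPRY4 0.25 (0.032 to 0.46, edgeR adjusted p = 0.455). Each of the 3 genes was above WT in all S239A libraries in normalised counts, and so was SPRED2 (0.12, edgeR adjusted p = 0.660). The share of all genes separated in this way was not counted. On the TPM scale the S239A libraries of SPRY4 and ETV5 overlapped WT, and limma on log2(TPM + 1) gave 0.10 for SPRY4 (adjusted p = 0.898) and 0.084 for ETV5 (adjusted p = 0.976). With S239A replicate 2 and S239D replicate 2 left out together, DUSP4 (0.36, edgeR adjusted p = 0.0178) and ETV5 (0.28, edgeR adjusted p = 0.0423) were called. In that fit 874 of 16519 genes (5.29%) were called. The 18 alternatives put the adjusted p of DUSP4 between 0.0178 and 0.713 and that of ETV5 between 0.0423 and 0.978. SPRY2 was the member below 0, at -0.11 (95% interval -0.39 to 0.17), and ETV4 lay at 0.061 (-0.19 to 0.32).

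The comparison of S239D with S239A tests whether the variants differ from each other, and 5 of the 10 genes were called, 1 higher (DUSP4) and 4 lower (ETV4, SPRY4, ETV5 and DUSP6). Over all genes 43.6% were called, 20.9% higher and 22.7% lower. At an unadjusted p under 0.05 there were 6 of 10 members and 51.2% of all genes. These differences share the S239D libraries with those against WT. For DUSP4 the difference from S239A was smaller than that from WT, since S239A lay between. For SPRY4 the values were -1.25 from S239A and -1.004 from WT, and for ETV4 they were -1.39 and -1.33.

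**Figure D3:**
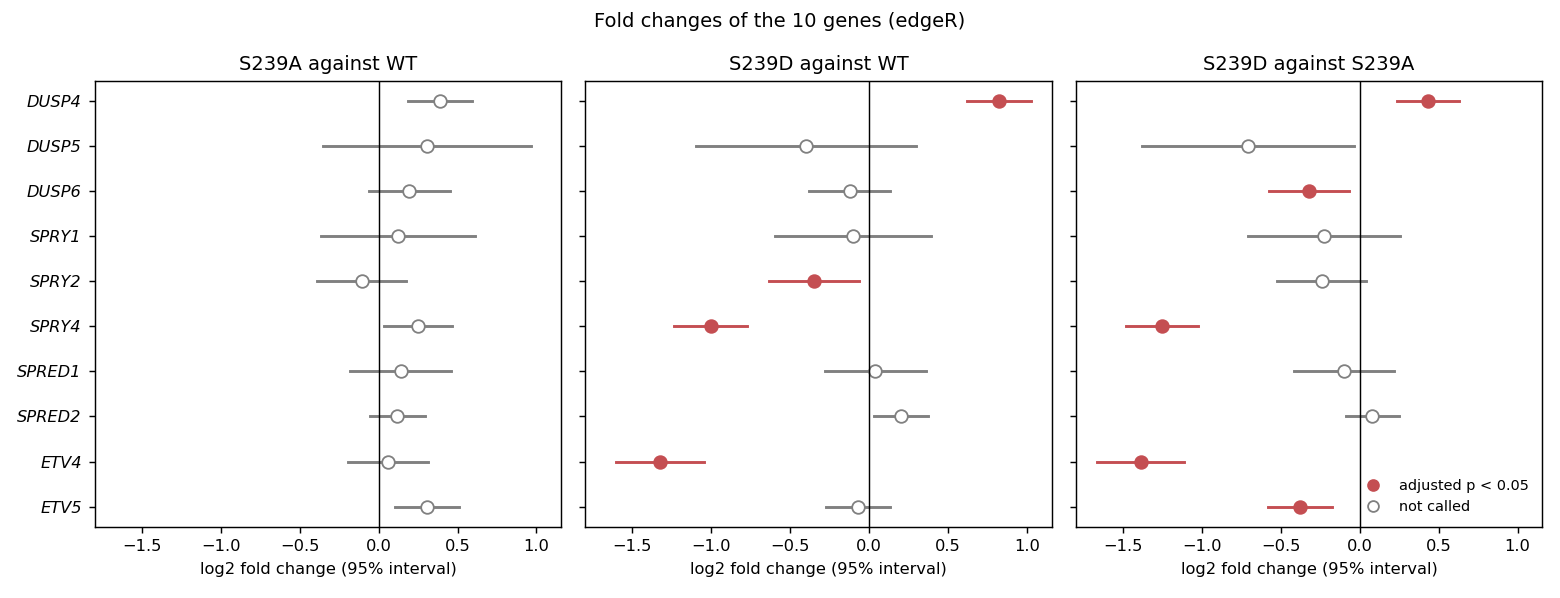
Log2 fold change (x axis) of each of the 10 genes (y axis) in the 3 comparisons, with 95% intervals from edgeR. Filled points mark an adjusted p under 0.05, which is reached by no gene for S239A against WT, by 4 for S239D against WT and by 5 for S239D against S239A.

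Other genes of the pathway were read from lists, first from the receptors down, and their counts stand beside 19.7% higher and 21.7% lower over all genes. Of 12 receptor tyrosine kinases measured, 2 rose and 4 fell in S239D against WT (median log2 fold change -0.21, against 0.00075 over all genes). EGFR, the receptor of epidermal growth factor, rose from 288 ± 8.2 to 1066 ± 44 CPM (SD, n = 3), or by 1.89 on the log2 scale (SE 0.10, with an edgeR adjusted p = 2.21e-08). FGFR1, a fibroblast growth factor receptor, fell by 1.15 (edgeR adjusted p = 9.81e-07), KIT by 1.27 and ERBB3, a partner of EGFR without strong kinase activity, by 0.36. Of 13 ligands measured, 5 fell and 0 rose (median -0.48). HGF, the ligand of MET, fell by 1.001 (from 46.7 ± 3.0 to 23.3 ± 4.9 CPM, edgeR adjusted p = 5.11e-05). PDGFB fell by 0.58, IGF2 by 1.54 and FGF2 by 0.70, the last pair at under 6 CPM in WT.

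Of 23 measured genes from GRB2 to ERK, 6 rose and 3 fell (median -0.0090). BRAF rose by 0.94 (SE 0.14, edgeR adjusted p = 0.000127). PTPN11, a phosphatase that promotes RAS signalling, rose by 0.33. BRAF has a pseudogene with which reads can be shared.

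Among 9 MAP kinase phosphatases outside the 10 genes, 4 rose and 3 fell (median 0.31). DUSP8 and DUSP16, which act mainly on JNK and p38, rose by 0.64 and 0.49, and DUSP3 by 0.48. DUSP10, another phosphatase of JNK and p38, fell by 0.60 (from 98.3 ± 9.3 to 65.1 ± 2.6 CPM, edgeR adjusted p = 0.000133). Of 15 other negative regulators of receptor, RAS and ERK signalling, 5 rose and 4 fell (median 0.22). ERRFI1, a feedback inhibitor of EGFR, fell by 0.62 (edgeR adjusted p = 4.20e-05). RASAL2 and RASA1, which switch RAS off, rose by 0.63 and 0.42. SPRY3, the Sprouty gene outside the 10, fell by 1.497 from a low level, 2.76 CPM in WT.

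Other genes that ERK induces went both ways, 8 higher and 10 lower of 24 (median -0.11). KLF6 rose by 1.10 (from 21.4 ± 1.1 to 46.1 ± 1.9 CPM, edgeR adjusted p = 2.39e-06) and MCL1, a survival factor of the BCL2 family, by 0.55. JUNB, a subunit of AP-1, fell by 1.22 (from 161 ± 16 to 69.2 ± 12 CPM, edgeR adjusted p = 1.07e-05) and ARC, an immediate early gene, by 1.57. No gene of these 6 lists was called in S239A against WT. In S239D against S239A, 2 of 12 receptors rose and 6 fell, and 0 of 13 ligands rose and 6 fell. Of the 24 other induced genes 6 rose and 7 fell. Of the 9 phosphatases 5 rose and 1 fell, and of the 23 cascade genes 5 rose and 3 fell. Of the 15 other negative regulators 3 rose and 2 fell. Over all genes 20.9% were called higher and 22.7% lower in that comparison.

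**Figure D4:**
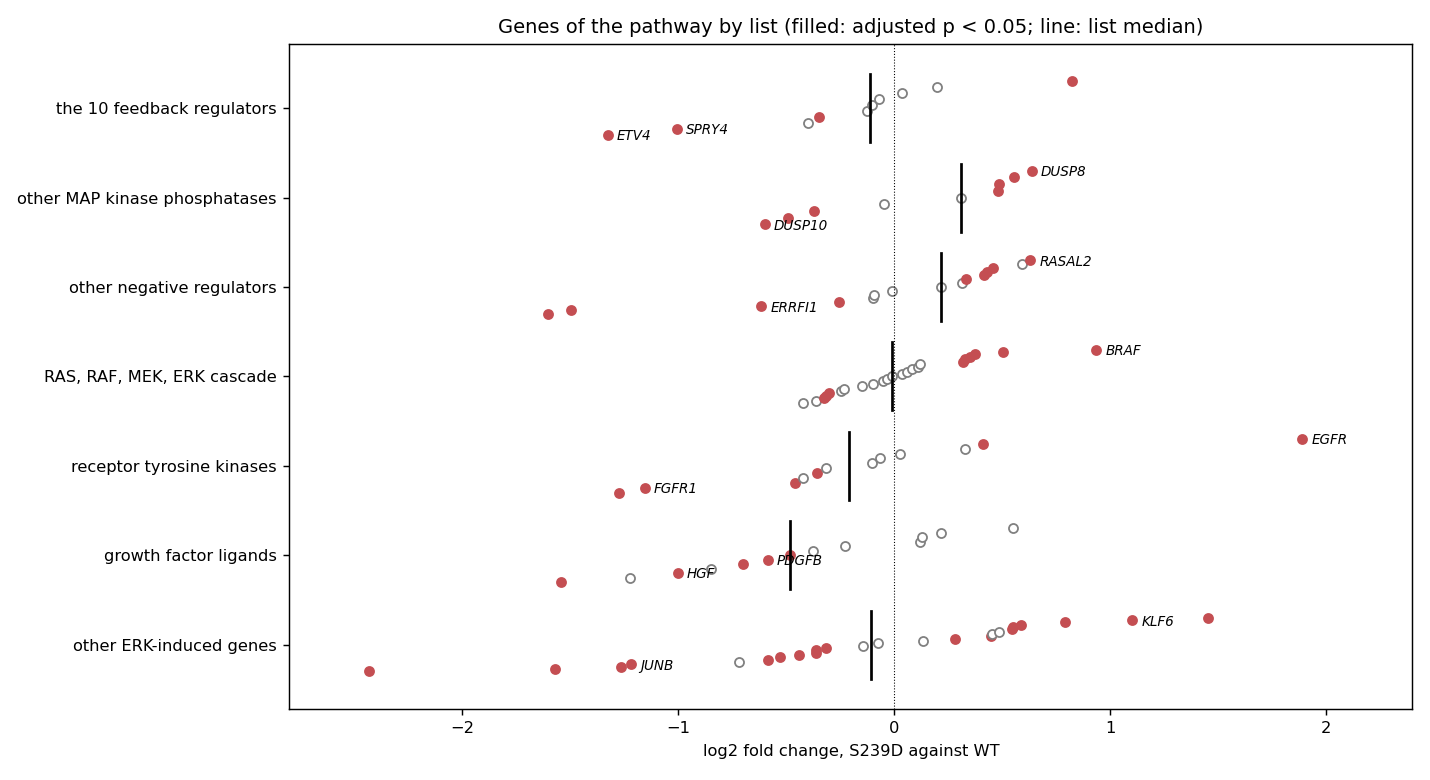
Log2 fold change of S239D against WT (x axis) for each measured gene of the 10 feedback regulators and of 6 lists of the pathway (y axis), filled where the edgeR adjusted p is under 0.05, with a line at each list's median. EGFR lies at 1.89 among the receptors, and in 6 of the 7 rows called genes lie on both sides of 0, the ligands being the exception.

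The genes whose pattern over the 9 libraries was nearest to that of DUSP6 and SPRY4 were sought among 12079 genes with a symbol and a mean of at least 5 CPM. Likeness was the root mean square difference of log2 CPM, centred on each gene's mean. CAMKK2 (0.050), RHBDD2 (0.063) and TSPAN14 (0.069) were nearest to DUSP6. SEZ6 (0.055), LRRC8A (0.061) and TRERF1 (0.066) were nearest to SPRY4. SEZ6, for example, was at 61.3 CPM in WT, 72.8 with S239A and 30.9 with S239D. None of the 10 members was among these 6.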

How the data were processed

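RNA was measured by poly(A)-selected sequencing in 9 libraries, grouped by genotype label. The authors deposited expected counts per gene, unscaled, and TPM. The submitters' processing notes name Trimmomatic 0.39 and RSEM. The aligner, build, annotation and strandedness are not given in the sources used here. Gene positions come from the deposited table, and all 10 genes overlap their GENCODE 29 positions on GRCh38. Expected counts were rounded, scaled by TMM, filtered with filterByExpr and tested with edgeR 4.0.16 (R 4.3.3) in 1 quasi-likelihood model of the 9 libraries (two-sided F tests). P-values were adjusted over 16213 genes (Benjamini-Hochberg), with calls at 0.05. SE and 95% intervals follow from the F statistic. The main model did not pair libraries by replicate number. Tried as alternatives were DESeq2 1.42.0, RLE scaling, limma 3.58.1 on log2(TPM + 1) or log2(TPM + 0.1) where 3 libraries reached 1 TPM, no filter, 1 CPM in 6 libraries, 2-group fits, the replicate number as a block, each library left out, and replicate 2 of both variants left out. The tests were checked on simulated counts. Members and lists were chosen with earlier results of these data known. Genes named from each list are the up to 4 with the smallest adjusted p for S239D against WT. Some of these genes are not reported here.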

Additional observations from a re-analysis of the deposited data

How the results depend on the processing

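Over 18 alternatives, DUSP4, SPRY4 and ETV4 kept their direction and their call in both S239D comparisons. The number of members called for S239D against WT was 3 to 5 over the single libraries left out, and that against S239A was 4 to 6, or 3 with limma on log2(TPM + 1) and 3 on log2(TPM + 0.1). For S239A against WT it was 0, but 2 with replicate 2 of both variants left out. Over all genes, S239A against WT gave 69 calls with DESeq2, 2 and 3 with limma (pseudocounts 1 and 0.1), 142 without a filter, 874 without replicate 2 of both variants and 1 to 8 over single libraries left out, the highest without S239D replicate 2. S239D against WT gave 4351 and 4284 with limma, of which 58.1% and 57.1% were higher, against 47.6% of 6708. S239D against S239A gave 4697 and 4642 with limma, 59.3% and 58.3% higher, against 48.0% of 7064. The median of all genes lay at 0.082 to 0.10 on those TPM scales. With the replicate block, 6, 7275 and 7610 genes and 0, 4 and 5 members were called for S239A against WT, S239D against WT and S239D against S239A, so no member's count moved. Deviations of same-numbered libraries correlated at -0.020 to 0.22 across genes, and those of different numbers at -0.18 to 0.13. The highest value was between S239A replicate 2 and S239D replicate 2. Not every library was nearest to its own number.

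Signs turned only for members not called, and for DUSP6 in S239D against S239A. With limma (pseudocounts 1 and 0.1), DUSP6 was at -0.068 and -0.074 and ETV4 at -0.033 and -0.035 in S239A against WT. SPRY1 was at 0.14 and 0.16 in S239D against WT. In S239D against S239A, DUSP6 was at 0.021 and 0.021 and SPRED1 at 0.063 and 0.069. Without replicate 2 of both variants SPRED1 was at -0.034 in S239A and -0.10 in S239D against WT. Over single libraries left out, SPRY1 ran from -0.062 to 0.31 and SPRED1 from -0.038 to 0.22 in S239A against WT. In S239D against WT SPRY1 ran from -0.28 to 0.018 and SPRED1 from -0.11 to 0.13. SPRED1 ran from -0.25 to 0.077 in S239D against S239A. The cause was not tested. DUSP5 and SPRY1, with at most 47 and 99 counts per library, had the widest intervals.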
